A study of Drosophila melanogaster with 12 samples.

Results

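Glutathione transferases (GSTs) and UDP-glycosyltransferases (UGTs) were followed through 2 days of constant conditions in the heads of adult flies. The genes were taken by name. Every probe set whose single current symbol starts with Gst or Ugt followed by a capital letter or a digit was kept, and where a gene had several probe sets the one with the highest mean stood for it. This gave 67 genes, 34 Gst and 33 Ugt, of the 10844 genes with 1 symbol on the Affymetrix Drosophila Genome 1 array, from 71 of its 14010 probe sets. All samples carried the cn bw genotype, that is mutations in cinnabar, an enzyme gene of eye pigment synthesis, and brown, a gene for a transporter of pigment precursors, so no sample was free of these alleles. The flies were kept in constant darkness, first at 25 °C and then in a thermocycle of 12 h at 18 °C and 12 h at 25 °C, and were collected after release into constant darkness at 25 °C. Heads were collected every 4 h from AA2 to AA46, where AA0 is the onset of the subjective cryophase (the half-day that would have been cold), with 1 array per collection and about 100 to 200 heads behind each, per the labels. The 12 arrays form 6 times of day (2, 6, 10, 14, 18 and 22 h) with 1 array of day 1 and 1 of day 2 each. The age and the sex of the flies are not given in the labels.

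Both families make foreign and internal compounds easier to excrete. GSTs join glutathione to reactive electrophiles, or use it to reduce peroxides, and UGTs join a sugar, in insects mostly glucose, to hydroxylated or otherwise polar compounds. In Drosophila the delta (GstD) and epsilon (GstE) classes are expansions particular to insects that lie in gene clusters, while the omega, sigma, theta and zeta classes are shared with mammals. UGTs are membrane proteins of the endoplasmic reticulum, and several of them are expressed in the antenna, where enzymes of this kind are thought to clear odorants.

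Values are log2 levels (RMA), so that 1 unit is a 2-fold difference. A level belongs to its own probe set and was not set against that of another gene, except through the filter on low values. A probe set was tested only where more than 50% of its values lay above the 20th percentile of their array, which 11156 probe sets did. Of the GST genes, 33 of 34 passed, and GstE10 did not (3.54 to 3.90 over the 12 arrays). Of the UGT genes, 19 of 33 passed. The 14 others (Ugt302E1, Ugt303A1, Ugt303B1, Ugt303B2, Ugt303B3, Ugt304A1, Ugt307A1, Ugt35E1, Ugt35E2, Ugt37A2, Ugt37C1, Ugt37C2, Ugt37E1 and Ugt49B2) had means between 2.46 and 3.92. The 52 tested genes are the ones counted below.

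One array stood apart before any result. The mean r of AA46 with its fellow arrays was 0.992, where the other 11 had 0.996 to 0.997, and its 18S ribosomal control read 4.09 against 2.78 to 2.99. It held the lowest value of 13 of the 52 genes (25%, against 18.9% of all tested probe sets) and the highest of 4 (7.69%, against 25.1%). Named Gst and Ugt genes whose result it changed are given with and without it. The label of the tissue was checked by the filter on genes of known cell types. Only genes with a probe set of a single current symbol are counted here. All 3 such photoreceptor genes (trp, Arr1 and Arr2) passed it, as did 2 of 3 neuronal, 3 of 3 glial and 5 of 5 fat body genes. Of the antennal genes 3 of 4 passed, and lush did not. The accessory gland genes Acp26Aa and Acp36DE of the male abdomen did not pass. However, the third male gene (Mst87F), 5 of 5 gut genes and 2 of 3 ovary genes (Cp36 and Vm26Aa) passed as well, so passing the filter did not by itself set head markers apart.

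**Figure D1:**
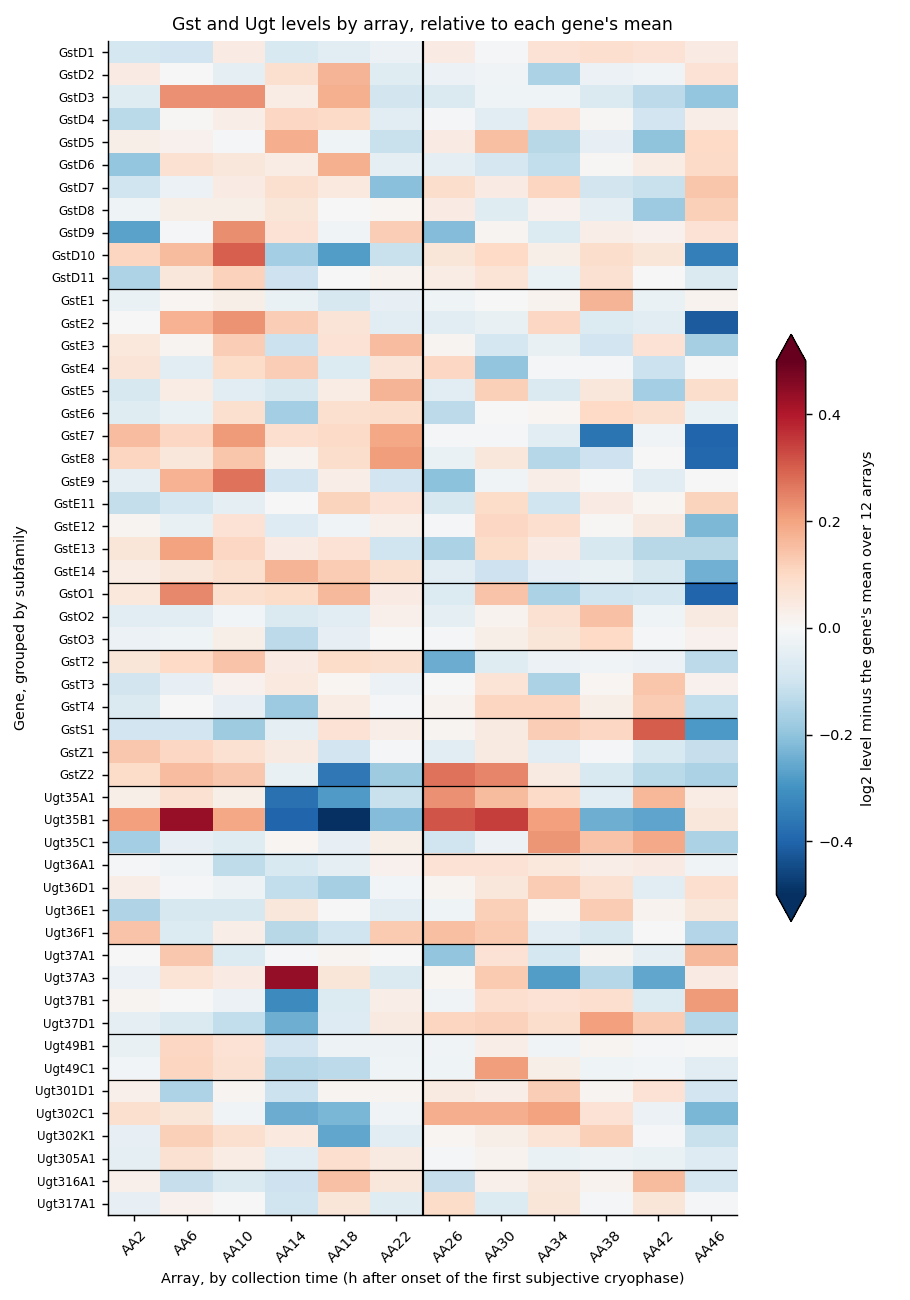
Level of each of the 52 tested Gst and Ugt genes (grouped by subfamily, black lines) on each of the 12 arrays, as log2 difference from the gene's own mean, with red above and blue below the mean and the bold line between day 1 and day 2. Ugt35B1 was low on AA14 and AA18 (9.36 and 9.12) and high on AA6 (10.19), and GstE2, GstE7, GstE8 and GstO1 were lowest on AA46.

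The first question was which of these genes followed the time of day. Each profile was scored by F24, the share of its variance over the 12 arrays that a 24-h cosine and sine carry, with a local permutation p from 100000 random time orders. At a local p under 0.05 there were 6 of 52 genes (11.5%), against 6.1% of all tested probe sets. They were 3 of 33 GST genes (9.09%), GstD10, GstE2 and GstZ2, and 3 of 19 UGT genes (15.8%), Ugt302K1, Ugt35B1 and Ugt49C1. None of the 52 reached an adjusted p under 0.05 in this permutation test with Benjamini-Hochberg adjustment, where the background was 0% and the lowest adjusted p of these genes was 0.127. By limma's F test of the same cosine and sine, Ugt35B1 and GstZ2 were called, against 0.296% of all tested probe sets. All 6 genes peaked in the subjective cryophase, between 5.2 and 10 h.

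Ugt35B1, known earlier as Ugt35b and described as an antennal enzyme, had the widest swing of the 52 genes. It read 9.96, 10.19, 9.95, 9.36, 9.12 and 9.54 from AA2 to AA22 and 10.07, 10.10, 9.96, 9.51, 9.49 and 9.81 from AA26 to AA46. The 6 arrays of the subjective cryophase (9.95 to 10.19) all lay above the 6 of the subjective thermophase (9.12 to 9.81). The fitted peak-to-trough difference was 0.87 ± 0.10 log2 (SE over 12 arrays, 1.82-fold), with the peak at 5.2 ± 0.462 h (local permutation p = 6.00e-05, limma adjusted p = 0.00315). Fitted on each day alone, the difference was 1.06 with the peak at 5.6 h on day 1 and 0.69 with the peak at 4.6 h on day 2, and limma's test of a different profile between days gave an adjusted p of 0.499. A second probe set of this gene, with a mean of 5.50, had its fitted peak at 3.4 h and a difference of 0.19 (local permutation p = 0.21), so the 2 probe sets differ in the call.

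GstZ2 belongs to the zeta class, whose mammalian member is the maleylacetoacetate isomerase of tyrosine breakdown. It read 7.59, 7.65, 7.63, 7.46, 7.14 and 7.32 on day 1 and 7.77, 7.74, 7.54, 7.42, 7.36 and 7.34 on day 2. Again all cryophase arrays (7.54 to 7.77) lay above all thermophase arrays (7.14 to 7.46). The fitted difference was 0.46 ± 0.08 log2 (1.38-fold) with the peak at 6.0 ± 0.618 h (local permutation p = 0.00106, adjusted p = 0.335, limma adjusted p = 0.0305), and the peaks of the single days were at 6.8 and 5.2 h. Arrays of the subjective cryophase that all lay above those of the thermophase were found for these 2 genes, and for 0.323% of all tested probe sets. The opposite order, held by 0.26% of all tested probe sets, was found for none of the 52 genes.

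A further 4 genes passed the local test with smaller differences. GstD10, a delta class gene, read 5.01, 5.06, 5.20, 4.73, 4.62 and 4.79 on day 1 and 4.96, 5.0, 4.93, 4.99, 4.96 and 4.56 on day 2. On day 1 its cryophase arrays were high and its thermophase arrays low, whereas on day 2 AA46 alone was low. The fit gave 0.37 ± 0.12 log2 with the peak at 7.6 ± 1.21 h (local permutation p = 0.0376), and 0.30 with p = 0.0689 without AA46. GstE2, of the epsilon class, read 7.27, 7.44, 7.49, 7.39, 7.33 and 7.21 on day 1 and 7.21, 7.23, 7.37, 7.20, 7.21 and 6.85 on day 2. The array of 10 h was its highest on both days and AA46 was its lowest. The fit gave 0.31 ± 0.11 log2 with the peak at 10 ± 1.35 h (local permutation p = 0.0308), which became 0.19 with p = 0.133 without AA46.

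Ugt49C1 read 8.42, 8.54, 8.51, 8.29, 8.30 and 8.41 on day 1 and 8.41, 8.64, 8.46, 8.41, 8.42 and 8.38 on day 2. The 6 h array was the highest of each day, and the cryophase (8.41 to 8.64) met the thermophase (8.29 to 8.42) with a small overlap. The fitted difference was 0.21 ± 0.06 log2 with the peak at 6.3 ± 1.03 h (local permutation p = 0.00975). Ugt302K1 read 4.44, 4.60, 4.56, 4.53, 4.22 and 4.43 on day 1 and 4.49, 4.51, 4.55, 4.60, 4.47 and 4.37 on day 2. Its lowest arrays were AA18 and AA46, while the highest was at 6 h on day 1 and at 14 h on day 2. The fit gave 0.21 ± 0.06 log2 with the peak at 8.8 ± 1.15 h (local permutation p = 0.0147). The mean of Ugt302K1, 4.48, lay not far above that of Ugt303B2 (3.92), which did not pass the filter. The adjusted p of these 4 genes lay between 0.555 and 0.758 by permutation and between 0.5 and 0.746 by limma. GstZ2, Ugt302K1, Ugt35B1 and Ugt49C1 kept a local p under 0.05 whichever array was left out.

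**Figure D2:**
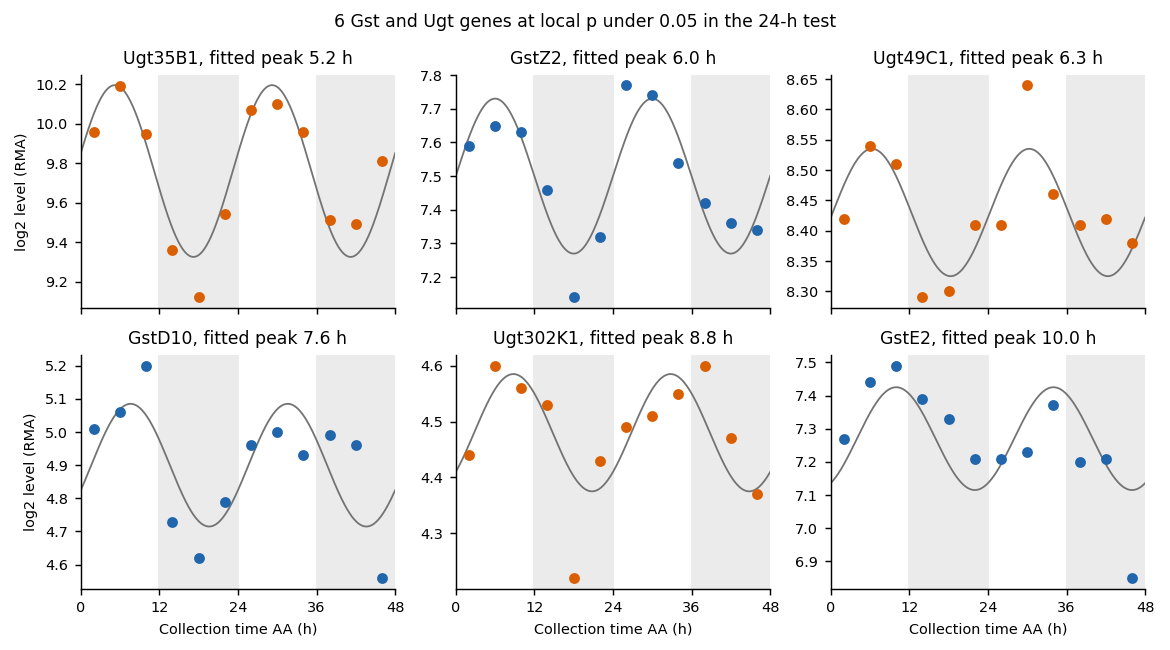
log2 level of the 6 genes with a local permutation p under 0.05 against collection time in hours (points, 1 array each, blue for Gst and orange for Ugt, grey bands for the subjective thermophase) with the fitted 24-h cosine (line). All fitted peaks fall in the subjective cryophase, and the point at AA46 is the lowest for GstD10 (4.56) and GstE2 (6.85).

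Just outside the local threshold was Ugt302C1 (earlier Ugt86Da). It read 7.43, 7.41, 7.33, 7.10, 7.12 and 7.33 on day 1 and 7.53, 7.53, 7.55, 7.42, 7.32 and 7.12 on day 2. The low arrays came at 14 and 18 h on day 1 and at 18 and 22 h on day 2, and the fit gave 0.31 ± 0.10 log2 with the peak at 6.0 h (local permutation p = 0.0501). Ugt35A1 (earlier Ugt35a) lies next to Ugt35B1 in the gene table, and its profile gave 0.30 ± 0.13 log2 at 4.2 h (local permutation p = 0.126). When each array was left out the difference ran from 0.21 (without AA14, local permutation p = 0.241) to 0.42 (without AA42, p = 0.00534), and the highest p was 0.27, without AA18. Ugt35E2 (earlier Ugt86De) ran between 3.59 and 3.93, below the filter, with 0.22 ± 0.05 log2 at 2.1 h (local permutation p = 0.00321, not adjusted). GstD10, GstE2, GstZ2 (there under its CG number), Ugt35A1, Ugt35B1, Ugt302C1 and Ugt35E2 were listed by the study, as temperature-driven or temperature-entrained transcripts. The second of these sets was chosen on data that include these arrays, and which set each gene came from was not resolved here, so these profiles are not treated as independent evidence of a rhythm.

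Among the remaining subfamilies the largest fitted differences were 0.21 ± 0.08 log2 for Ugt36F1 (peak 2.8 h, local permutation p = 0.0849), 0.17 ± 0.14 for GstO1 (8.0 h, p = 0.54), 0.15 ± 0.10 for Ugt37B1 (2.2 h, p = 0.441), 0.13 ± 0.08 for Ugt316A1 (17.8 h, p = 0.289) and 0.10 ± 0.09 for GstT2 (12.6 h, p = 0.571). None of them passed the test. When each array was left out they ran from 0.18 to 0.25 for Ugt36F1, with p = 0.021 by permutation without AA46 and 0.0422 without AA6. They ran from 0.09 (peak 4.2 h, without AA46) to 0.26 for GstO1, from 0.04 (without AA14) to 0.22 for Ugt37B1, from 0.09 to 0.17 for Ugt316A1, and from 0.04 (peak 8.9 h, without AA26) to 0.15 for GstT2. Of the 46 genes that missed the local threshold, the fitted difference ran from 0.01 to 0.31 log2. One of them was GstO2, whose probe set gave 0.05 ± 0.06 log2 (local permutation p = 0.716). A second GstO2 set, with a mean of 6.47, gave 0.20 ± 0.06 log2 at 6.9 h. Its local permutation p was 0.0356 (adjusted p = 0.745), so the sets of this gene differ in the call. GstD1, an abundant delta class enzyme widely used as a marker of oxidative stress, stayed between 12.25 and 12.43, with 0.05 ± 0.06 log2 (local permutation p = 0.641). GstS1, the sigma class enzyme that conjugates products of lipid peroxidation, ran from 8.79 to 9.38, with 0.16 ± 0.13 log2 at 15.5 h (local permutation p = 0.486), or 0.10 without AA42.

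Fitted peaks lay in the subjective cryophase, between 0 and 12 h, for 32 of the 52 genes (61.5%), against 44.4% of all tested probe sets and 47.7% of those at a local p under 0.05. By family these were 19 of 33 GST genes (57.6%) and 13 of 19 UGT genes (68.4%). The 8 to 12 h window was the fullest for GSTs, with 10 genes, and the 4 to 8 h window for UGTs, with 7. Most of these peaks come from fits that did not pass the test, and their members share arrays, so the counts are a description. At the level of single arrays, AA14 held the lowest value of 11 of the 52 genes (21.2%, against 10% of all tested probe sets), whereas AA38, of the same time on day 2, held the lowest of none (5.87% of all) and the highest of 7 (13.5%, against 5.77%). AA10 also held the highest of 7 (13.5%, against 3.94%), and AA2, likewise of the cryophase, the lowest of 7 (13.5%, against 6.7%). The median fitted difference was 0.105 log2 for GSTs, 0.111 for UGTs and 0.0956 for all tested probe sets.

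**Figure D3:**
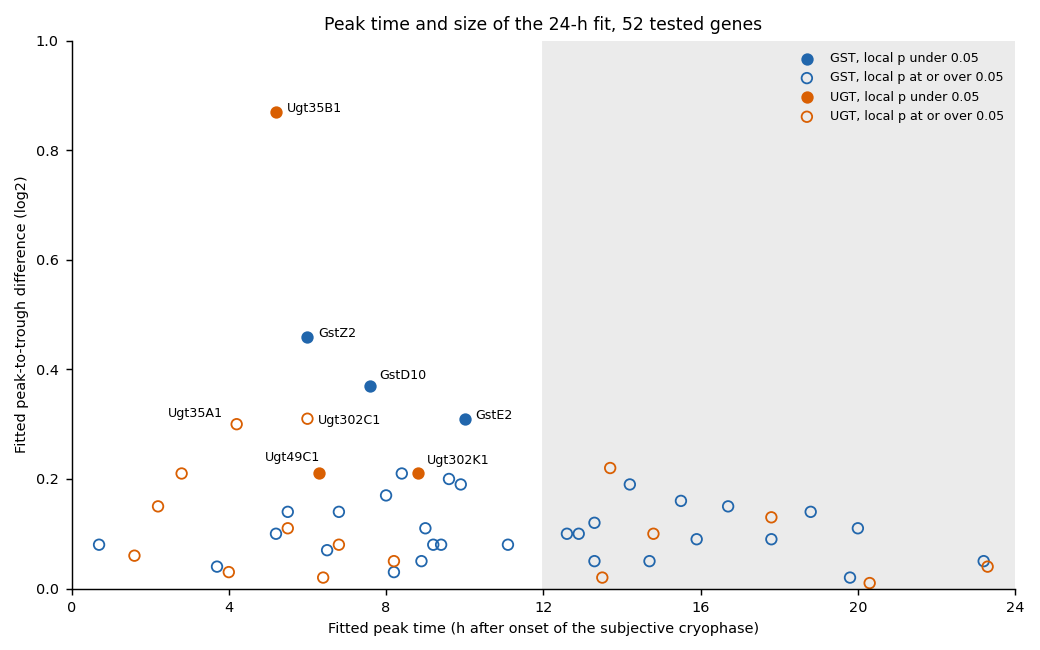
Fitted peak-to-trough difference (log2) against fitted peak time (h after the onset of the subjective cryophase) for the 52 tested genes, blue for Gst and orange for Ugt, filled where the local permutation p is under 0.05, with the subjective thermophase in grey. The filled points lie between 5.2 and 10 h and Ugt35B1 stands highest at 0.87.

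The array design pairs each time of day across the days, and the second question was whether levels differed between day 1 and day 2 in constant conditions. With the 6 times of day as a block in limma, none of the 52 genes had an adjusted p under 0.05, while 1.61% of all tested probe sets did. The lowest adjusted p was 0.0654 for GSTs (GstO1) and 0.0923 for UGTs (Ugt35A1). At an unadjusted limma p under 0.05, 9 GST and 5 UGT genes stood out. They were 8 GST genes that were lower on day 2 (24.2% of 33, against 7.26% of all tested probe sets), namely GstD3, GstE2, GstE7, GstE8, GstE13, GstE14, GstO1 and GstT2, and 1 that was higher, GstD1. The 5 UGT genes were all higher on day 2 (26.3% of 19, against 7.5%), namely Ugt35A1, Ugt35B1, Ugt36D1, Ugt36E1 and Ugt37D1. The median difference, day 2 minus day 1, was -0.03 log2 over GSTs (20 lower, 13 higher) and 0.07 over UGTs (16 higher, 3 lower), beside 0.00 over all tested probe sets.

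The GSTs that were lower on day 2 came mostly from the epsilon class, with 5 of its 13 tested genes. GstE7 read 6.13, 6.08, 6.19, 6.06, 6.07 and 6.17 on day 1 and 5.97, 5.97, 5.92, 5.61, 5.96 and 5.58 on day 2, so that the days did not overlap. Its difference was -0.28 ± 0.07 log2 (SE, 0.824-fold, limma adjusted p = 0.0675). GstE14, known as noppera-bo and needed for ecdysteroid synthesis, read 7.46 to 7.59 on day 1 and 7.18 to 7.39 on day 2, again without overlap (-0.18 ± 0.05, limma adjusted p = 0.0778). GstT2, of the theta class, was the third without overlap, with 6.38 to 6.48 on day 1 and 6.09 to 6.32 on day 2 (-0.17 ± 0.05, limma adjusted p = 0.0968). For comparison, 1.75% of all tested probe sets had all day 2 arrays below all day 1 arrays. The order was the other way round in 1% of all tested probe sets and in none of the 52 genes.

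GstO1, of the omega class to which the eye pigment enzyme of the sepia gene also belongs, read 5.79, 5.98, 5.82, 5.83, 5.90 and 5.78 on day 1 and 5.67, 5.88, 5.58, 5.64, 5.65 and 5.34 on day 2. Day 2 was lower at all 6 times of day, although AA30 (5.88) lay within the day 1 range (-0.22 ± 0.05 log2, limma adjusted p = 0.0654). GstE8 gave -0.20 ± 0.07 log2 (adjusted p = 0.195 by limma) and was lower at 5 of 6 times, and GstE2 gave -0.18 ± 0.05 (adjusted p = 0.105 by limma) and was lower at all 6. AA46 was the lowest array for GstE2, GstE7, GstE8, GstE14 and GstO1. Without it, in a fit that then rests on the other 5 times of day, their differences were -0.14, -0.22, -0.12, -0.16 and -0.18 log2, with limma adjusted p between 0.052 and 0.184. GstO2 and GstO3, of the same class, both gave 0.07 log2 (adjusted p = 0.54 and 0.562 by limma), and a second probe set of GstO2 gave 0.01. GstD1 averaged 12.30 on day 1 and 12.40 on day 2 (0.10 ± 0.04, limma adjusted p = 0.295).

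On the UGT side, Ugt35A1 read 5.98, 6.03, 5.98, 5.58, 5.67 and 5.84 on day 1 and 6.18, 6.11, 6.05, 5.90, 6.12 and 5.99 on day 2. Day 2 was higher at all 6 times of day, with the widest gaps at 14 and 18 h, and the days overlapped (0.21 ± 0.06 log2, 1.16-fold, limma adjusted p = 0.0923). Ugt37D1 read 8.52, 8.49, 8.44, 8.32, 8.50 and 8.61 on day 1 and 8.67, 8.68, 8.65, 8.77, 8.69 and 8.42 on day 2. It was higher on day 2 at 5 of 6 times and AA46 was the exception (0.16 ± 0.07 log2, limma adjusted p = 0.283). Without AA46 the difference was 0.24 with a limma adjusted p of 0.0269. Ugt302C1 likewise gave 0.12 ± 0.06 log2 (limma adjusted p = 0.392), and 0.19 with an adjusted p of 0.0477 without AA46. Leaving out AA22 instead gave the same values for both genes, because either way the blocked fit loses the 22 h pair. The change is thus not particular to AA46. Without a 14 h array the differences of Ugt37D1 and Ugt302C1 were 0.11 and 0.09. Ugt35B1 gave 0.14 ± 0.06 (adjusted p = 0.321 by limma), or 0.09 without an 18 h array, and Ugt37B1 0.12 ± 0.06 (adjusted p = 0.365), or 0.07 without a 14 h array. Of the 3 UGT genes that were lower on day 2, Ugt37A3 had the largest difference (-0.17 ± 0.08, limma adjusted p = 0.396), and it was lower at 3 of 6 times.

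**Figure D4:**
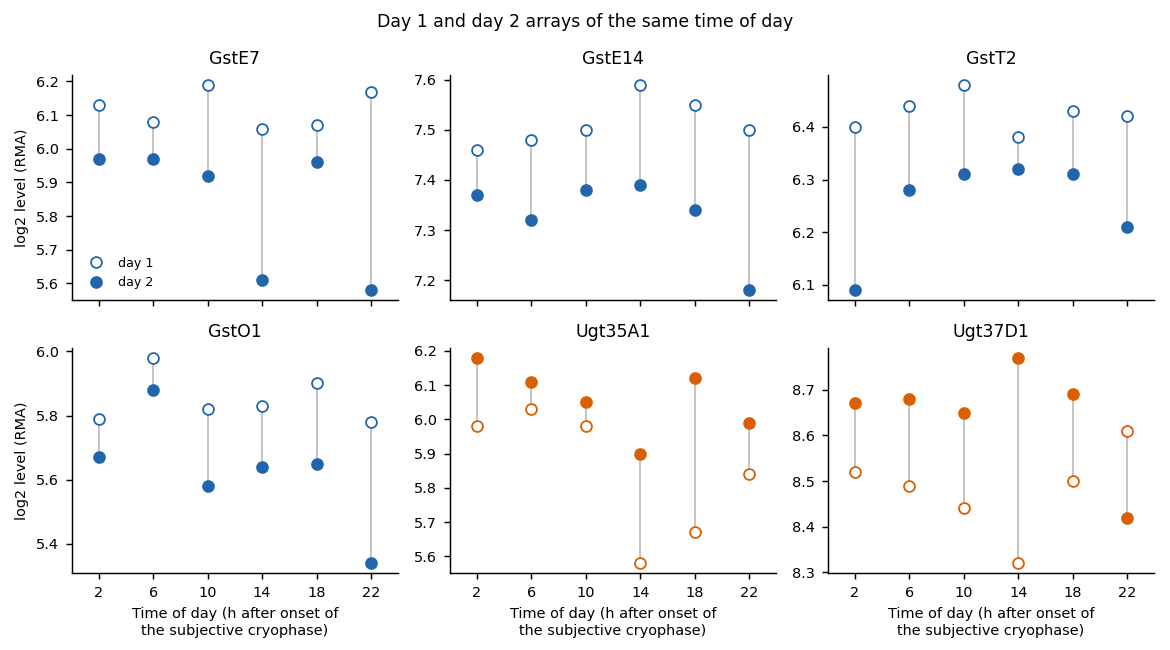
log2 level on day 1 (open) and day 2 (filled) at each time of day (h after the onset of the subjective cryophase) for 4 Gst genes (blue) and 2 Ugt genes (orange), 1 array per point with lines joining the same time of day. Day 2 is lower at all 6 times for GstE7, GstE14, GstT2 and GstO1 and higher at all 6 for Ugt35A1, while Ugt37D1 is higher at 5 of 6.

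The family medians of the paired differences were 0.01, -0.01, -0.11, -0.04, -0.09 and -0.07 log2 for GSTs at 2, 6, 10, 14, 18 and 22 h, and 0.04, 0.08, 0.07, 0.12, 0.09 and -0.04 for UGTs. Thus the GST median was at or below 0 from 6 h on, and the UGT median was above 0 at every time but 22 h, the pair that holds AA46. The 2 families were not tested against each other. In mixed tissue such as a head, fewer cells of a type and less RNA per cell cannot be told apart. Fat body markers also differed between the days, with a list mean of 12.77 to 13.14 on day 1 and 12.15 to 12.71 on day 2, and 2 of the 5 (Yp2 and fit) called lower by limma (adjusted p = 0.046 and 2.19e-07). The gene fit, a female-biased gene that read 9.0 to 10.52 on day 1 and 6.57 to 8.56 on day 2, carried most of this. Without it, a choice made after seeing the data, the mean of the other 4 was 13.62 to 13.80 on day 1 and 13.51 to 13.75 on day 2, with Yp1 at -0.11, Yp3 at -0.20 and Lsp2 at 0.06 log2 (limma adjusted p = 0.306, 0.071 and 0.818). Of the photoreceptor markers 1 of 3, trp, was called higher (0.23 ± 0.05 log2, limma adjusted p = 0.0238). The part of these cell types in the GST and UGT differences was not tested. Nor was that of the sex of the flies, which the labels do not give.

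**Figure D5:**
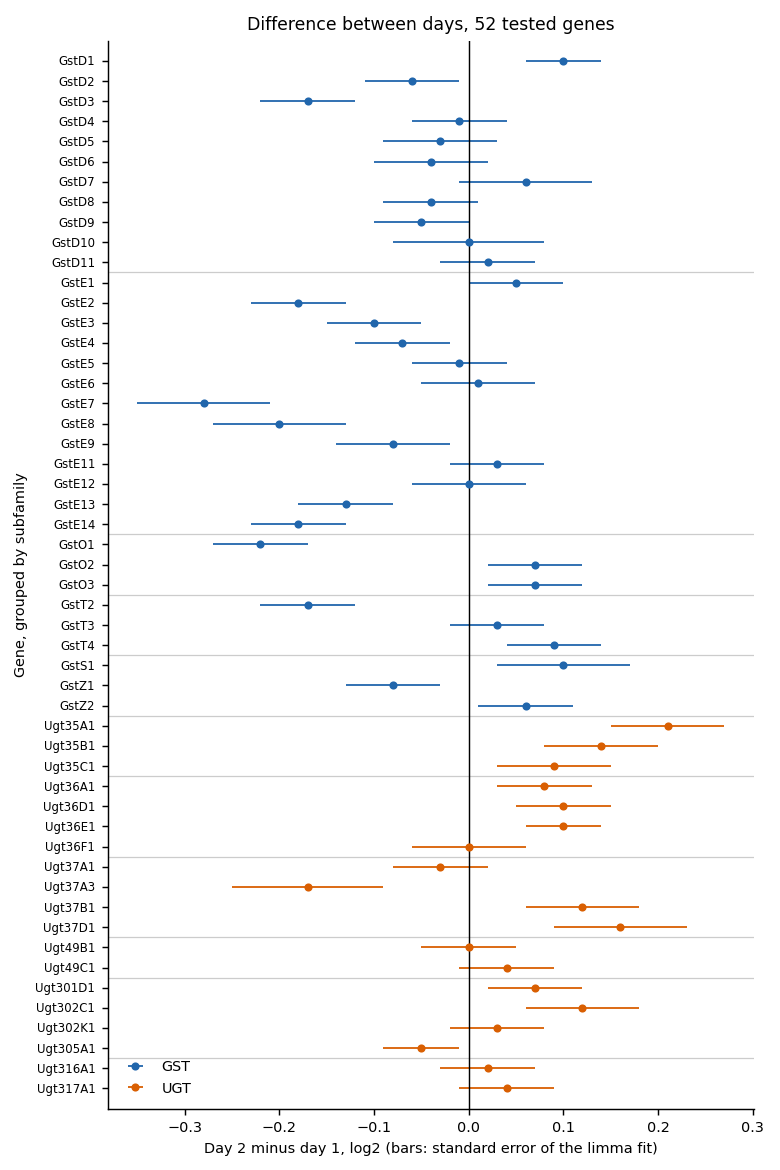
Day 2 minus day 1 (log2, with the standard error of the limma fit) for the 52 tested genes by subfamily, blue for Gst and orange for Ugt. The lowest value is GstE7 at -0.28 and the highest Ugt35A1 at 0.21, and no gene had an adjusted p under 0.05.

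Whether a 24-h profile changed between the days was tested by the interaction of day with the cosine and sine. None of the 52 genes was called by limma (lowest adjusted p = 0.499), and 0% of all tested probe sets were. At an unadjusted p under 0.05 there were 4 genes, GstD7, Ugt35B1, Ugt37A3 and Ugt37D1, or 7.69%, against 9.38% of all tested probe sets.

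Many of these genes lie next to each other, and 11 runs of adjacent Gst or Ugt genes were found in the gene table. The 2 long ones were GstD10 to GstD8 and GstE10 to GstE9, with 10 genes each. Across the 12 arrays, the median Pearson r of the 89 pairs of tested genes within a run was 0.16, beside 0.05 for all 1326 pairs, which is a description because all pairs share the same arrays. Within runs the highest values were those of GstE7 and GstE8 (r = 0.88), GstE3 and GstE8 (0.77), GstE3 and GstE7 (0.76), Ugt35B1 and Ugt35A1 (0.76) and Ugt49B1 and Ugt49C1 (0.75). The lowest was that of GstE1 and GstE7 (r = -0.63), and GstO2 and GstO1 had -0.54. The 15 pairs among the 6 genes at a local p under 0.05, which were chosen for a 24-h pattern, ran from 0.07 (GstE2 and Ugt35B1) to 0.87 (GstZ2 and Ugt35B1), with a median of 0.61. The probes of close copies may pick up each other's transcripts, and this was not checked, since probe sequences were not used here. The probe sets that stood for GstO2 and Ugt305A1 carry the suffix that the manufacturer gives to sets shared by several transcripts. The second GstO2 set, with the local permutation p of 0.0356, does not carry it.

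Genes that supply or surround conjugation were read from a list of 28. Of these, 21 had a probe set with that gene as its single current symbol, and 18 were tested. At a local permutation p under 0.05 there were 4 of 18 (22.2%, against 6.1%), and none had an adjusted p under 0.05 by permutation (lowest 0.161) or by limma. Gclm, the modifier subunit of the enzyme that limits glutathione synthesis, read 8.14, 8.27, 8.47, 8.50, 8.55 and 8.41 on day 1 and 8.17, 8.43, 8.60, 8.68, 8.49 and 8.36 on day 2. Both days were lowest at 2 h, and the fit gave 0.39 ± 0.07 log2 with the peak at 14.1 ± 0.647 h (local permutation p = 0.0006), later than the peaks of all 6 conjugating genes above. Mdr49, an ABC transporter of the P-glycoprotein type, gave 0.36 ± 0.08 log2 at 3.7 h (p = 0.00473 by permutation). The study listed Mdr49 and Jheh2 too, with the same limit as for the genes above. The sulfotransferases St1 and St3 gave 0.26 ± 0.07 at 4.0 h (p = 0.00923 by permutation) and 0.13 ± 0.01 at 7.3 h (p = 0.00013 by permutation). The other supply genes, Gclc, Cbs and Ggt-1 for glutathione and UGP, sgl and Pgm1 for UDP-sugars, gave 0.05 to 0.22 log2 and local permutation p of 0.0883 or more. So did the regulators cnc, Keap1 and maf-S, with 0.09 to 0.13 log2. Between days the list had a median of 0.06 log2, with 0 of 18 called by limma (lowest adjusted p = 0.298, against 1.61% of all tested probe sets called) and 3 higher at an unadjusted p under 0.05, namely sgl, St1 and Jheh2, where 7.5% of all tested probe sets were.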

How the data were processed

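The authors deposited log2 expression levels made with RMA, which subtracts background, quantile-normalizes arrays and summarizes probes by median polish. The sources used here give no version. Such values hide any shift common to most transcripts. The number of arrays limits the precision. Symbols came from the platform annotation, updated by gene identifier against the RefSeq gene table, in which all 67 genes matched. Groups and days follow the collection times in the labels, which carry no replicate numbers and do not name separate cultures, so p-values reflect only how these arrays vary, which may be technical.

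F24 was tested with 100000 time orders and adjusted by Benjamini-Hochberg over 11156 probe sets. Day differences were fitted with limma 3.58.1 in R 4.3.3. Scripts were tested on simulated data. Alternatives were limma's F test, day as a term, a linear trend removed, median centring, no filter, second probe sets, no block, array weights and each array left out. Named genes were those at a local p under 0.05, the 5 largest rises and 5 largest falls between days, the largest fit of each subfamily, genes the study listed, and listed pathway genes past a threshold. The remaining names were chosen after their values were seen. The genes and lists were chosen with earlier results of these data known. No sequences were used here, and coordinates served only to put the genes of the gene table in order for the runs.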

Additional observations from a re-analysis of the deposited data

Results flagged for a closer look

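Single arrays were compared with the other 5 of their day for the named genes, in 34 combinations of gene and day, by Dixon's test at the 95% level, and 6 stood out. About 1 in 20 unselected groups would do so by chance. These genes were chosen partly for large fits or day differences, however, and the share over all tested probe sets is not given here. The count is therefore a description. Of the 6, 4 were on AA46, the array that stood apart in general. GstD10 read 4.56 on AA46, against 4.93 to 5.0 on the other arrays of day 2. GstE2 read 6.85 on AA46 (others 7.20 to 7.37), GstE14 7.18 (7.32 to 7.39) and Ugt37D1 8.42 (8.65 to 8.77). Ugt37B1 read 5.07 on AA14, against 5.32 to 5.42 on the rest of day 1. Ugt49C1 read 8.64 on AA30, against 8.38 to 8.46 on the rest of day 2.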

How the results depend on the processing

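With 1 array per time and day, single arrays decide several counts. The number of GST genes at a local p under 0.05 (3) ran from 1 to 4 when each array was left out, with GstZ2 alone left without AA6, AA10 or AA46, and was 4 with the day as a term (the replicate block). The UGT count (3) was 5 by limma's F test, 5 with the replicate block and 6 with a linear trend removed. It ran from 3 to 5 when each array was left out, the 5 without AA42. With second probe sets the GST count was 4 and the UGT count fell to 2, without Ugt35B1. The count at an adjusted p (0) was 2 by limma's F test. Between days, GST calls (0) were 1 without the time-of-day block (GstE14), 4 with array weights (GstE7, GstE14, GstO1 and GstT2) and 0 to 1 when an array was left out, the 1 being GstS1, which was higher by 0.19 log2 (limma adjusted p = 0.0498) without AA22 or AA46 and by 0.10 with them. UGT calls (0) were 2 with array weights (Ugt35A1 and Ugt37D1) and 0 to 2 when an array was left out (Ugt302C1 and Ugt37D1 without AA22 or AA46). UGT genes higher at an unadjusted p (5) ran from 1 to 7, with 1 without either 14 h array, and GST genes lower (8) from 7 to 9, and both of these counts were chosen after seeing the data. When each array was left out the medians ran from -0.05 to -0.01 for GSTs and from 0.06 to 0.10 for UGTs. The UGT median was 0.05 with second probe sets and 0.02 without the filter. GstD10 lost its local p in 10 of 17 alternatives and GstE2 in 6 of 17, while no direction turned.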
